A study of Homo sapiens with 18 samples.

Results

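The genes described here are 10 genes of the unfolded protein response and of the ATF4 response: HSPA5, DDIT3, ATF4, XBP1, ATF3, TRIB3, ASNS, CHAC1, DNAJB9 and HERPUD1. They were chosen by name as known endoplasmic reticulum (ER) stress genes, found in the count files by Ensembl identifier, and make up 10 of the 58444 genes that all files share. All 10 were listed in every library. The libraries came from H1975 (NCI-H1975 in the labels) and HCC827, 2 human lung adenocarcinoma lines in long use, known for activating EGFR mutations. Both lines were grown without any drug or stress treatment named in the labels, in RPMI 1640 medium with fetal calf serum, to near confluency, and were then frozen as cell suspensions. The labels say that the cells were grown independently and number 3 replicates per line and platform; whether a number stands for the same RNA on each platform is not said. The platforms were Illumina (poly(A) RNA, 3.75 ng, 11 PCR cycles), Oxford Nanopore (ONT; poly(A) RNA, 1.5 ng, 14 PCR cycles) and PacBio Iso-Seq (total RNA, 12 PCR cycles), each with synthetic spike-in RNA. This gives 18 libraries in 6 groups of 3. Each line is 1 line of its kind, so a difference between H1975 and HCC827 is a difference between these cultures only.

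The unfolded protein response is the program with which cells meet an overload of unfolded protein in the ER. It has 3 sensors in the ER membrane: IRE1 (gene ERN1), which splices XBP1 mRNA into the form that makes an active transcription factor; ATF6, which is cut and moves to the nucleus; and PERK (gene EIF2AK3), which phosphorylates the translation factor eIF2alpha. Phosphorylated eIF2alpha lowers translation in general but favours translation of ATF4 mRNA, and amino acid shortage reaches the same point through the kinase GCN2, so the ATF4 branch is also called the integrated stress response. XBP1 and ATF6 raise ER chaperones and degradation factors, whereas ATF4 raises genes of amino acid supply and further transcription factors such as DDIT3 (CHOP). Gene counts measure mRNA only: they show neither the translation of ATF4 nor the splicing of XBP1.

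The promoters show which of these branches each gene carries a short known element for. RefSeq promoter windows (GRCh38.p14), the 250 bases before each annotated start, were searched on both strands. A gene can have several annotated starts, and the 10 genes had 17 windows. The C/EBP-ATF response element, TGATGNAA, through which ATF4 acts, stood in 4 of these 17 windows, 1 each in ASNS, ATF3, CHAC1 and HERPUD1, and in 3.14% of all 35116 windows. The ER stress response element (CCAAT, 9 free bases, CCACG), an element of ATF6 and XBP1, stood in 1 window each of HSPA5 and XBP1 and in 0.074% of all windows. Its second form (ATTGG, 1 free base, CCACG) stood in 1 window of HERPUD1 and in 0.0513% of all windows, so HERPUD1 carried an element of each branch. TGACGTGG, the unfolded protein response element, stood in none of the 17 windows and in 0.612% of all windows. CCACG alone, which also ends both ER stress elements, stood in 11 of the 17 windows, from 7 of the 10 genes, and in 33.5% of all windows. DDIT3, ATF4, TRIB3 and DNAJB9 had none of the longer elements in these letters and this window. A match is a run of letters, not a measured binding site.

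The elements are shown 5′ to 3′ along the strand of the gene, with the fixed letters of the element in capitals and the flanks in lower case. In CHAC1 and HERPUD1 the C/EBP-ATF element lies on the other strand and is therefore seen as its reverse complement. Distances are to the RefSeq start of the window. The stretches printed for CHAC1 and ASNS lie inside the gene spans given below, which come from GENCODE and begin farther upstream. The windows are chr7:97872458-97872487 for ASNS (minus strand), chr1:212565205-212565234 for ATF3 (plus), chr15:40953251-40953280 for CHAC1 (plus), chr16:56931955-56931984 and chr16:56932016-56932044 for HERPUD1 (plus), chr9:125241386-125241414 for HSPA5 (minus) and chr22:28800598-28800626 for XBP1 (minus).
ASNS, C/EBP-ATF element, 61 to 68 bases before the start: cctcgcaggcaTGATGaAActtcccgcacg
ATF3, C/EBP-ATF element, 184 to 191 bases before the start: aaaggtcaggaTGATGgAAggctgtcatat
CHAC1, C/EBP-ATF element, 202 to 209 bases before the start: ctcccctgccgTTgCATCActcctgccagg
HERPUD1, C/EBP-ATF element, 169 to 176 bases before the start: gacgcggcgggTTgCATCAgcccgtgccca
HERPUD1, ER stress element of the second form, 107 to 117 bases before the start: cggacgccgATTGGgCCACGttgggagag
HSPA5, ER stress element, 48 to 66 bases before the start: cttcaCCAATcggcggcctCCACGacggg
XBP1, ER stress element, 34 to 52 bases before the start: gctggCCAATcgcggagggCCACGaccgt

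Depth set what each platform could show. Gene totals lay between 10020699 and 40200473 counts in Illumina libraries, between 81467393 and 116497461 in ONT and between 37795 and 54339 in PacBio. Illumina HCC827 replicate 2 was the shallowest of its platform, and Illumina HCC827 replicate 3 stood farthest from replicates of its own line (mean chi-square per gene 69.6 and 23.1, against 15.6 for replicates 1 and 2). On ONT it was HCC827 replicate 2 that stood farthest (104 and 116, against 49.4 for replicates 1 and 3), the library with the lowest DNAJB9 value. In PacBio, H1975 replicates 2 and 3 and HCC827 replicates 1 and 2 differed by less than the sampling noise (mean chi-square 0.55 and 0.671). All 6 lung epithelial cancer markers checked (EPCAM, KRT8, KRT18, KRT19, CDH1 and MUC1) were detected in both lines on every platform. Of 4 blood cell markers only CD68 was above 1 CPM on Illumina. Of 3 endothelial markers, PECAM1 had 3.31 to 4.15 CPM in H1975 and 1.17 to 1.52 CPM in HCC827 there. VWF had 1.52 to 1.79 CPM in HCC827 and at most 0.5 CPM in H1975, and CDH5 stayed at or below 0.466 CPM. The summed CPM of 4 fibroblast markers was 63.7 to 75.6 in H1975 and 0.117 to 0.547 in HCC827, carried in H1975 by COL1A2, while DCN, LUM and PDGFRA stayed at or below 0.346 CPM in every Illumina library. The part of cell makeup in the results below was not tested, and in bulk RNA a change in the number of cells and a change in RNA per cell cannot be told apart.

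Values below are CPM, counts scaled by the effective library size from the fit of each platform. That size rests only on the genes that passed the filter on low counts. On PacBio only 901 genes passed, so CPM there are larger than whole library totals would give. TRIB3 in PacBio H1975 replicate 1, for example, had 27 of 41253 counts and is printed as 1820 CPM. PacBio CPM are therefore not comparable in level with Illumina or ONT CPM. Folds are HCC827 over H1975 on the log2 scale with their standard error (SE). Each test is the edgeR quasi-likelihood test over all genes of a platform with Benjamini-Hochberg adjustment, and "called" means that the adjusted p was below 0.05.

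The 10 genes did not move as 1 program between the lines. On Illumina ATF4, ATF3, TRIB3 and HERPUD1 were higher in HCC827, HSPA5, XBP1 and DNAJB9 were higher in H1975, and DDIT3, ASNS and CHAC1 did not pass. That is 7 of 10 called, against 74.1% of all 25711 genes tested; 4 were higher against 36.1% of all genes, and 3 were lower against 38.0%. On ONT 4 of 10 were called, against 62.7% of 27366 genes: ATF4 was higher (31.1% of all genes were) and HSPA5, XBP1 and DNAJB9 were lower (31.6%). The counts of called genes are therefore near or under the background of lines that differ in most genes. With library totals as the only scaling, 5 were called on Illumina (1 higher) and 8 on ONT (all 8 lower). The folds were small beside the background, with a median size of 0.45 on Illumina and 0.24 on ONT against 0.77 for all genes on both. The libraries of the lines did not overlap for 6 of the 10 genes on Illumina (76.9% of all genes) and for 4 on ONT (69.1%).

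**Figure D1:**
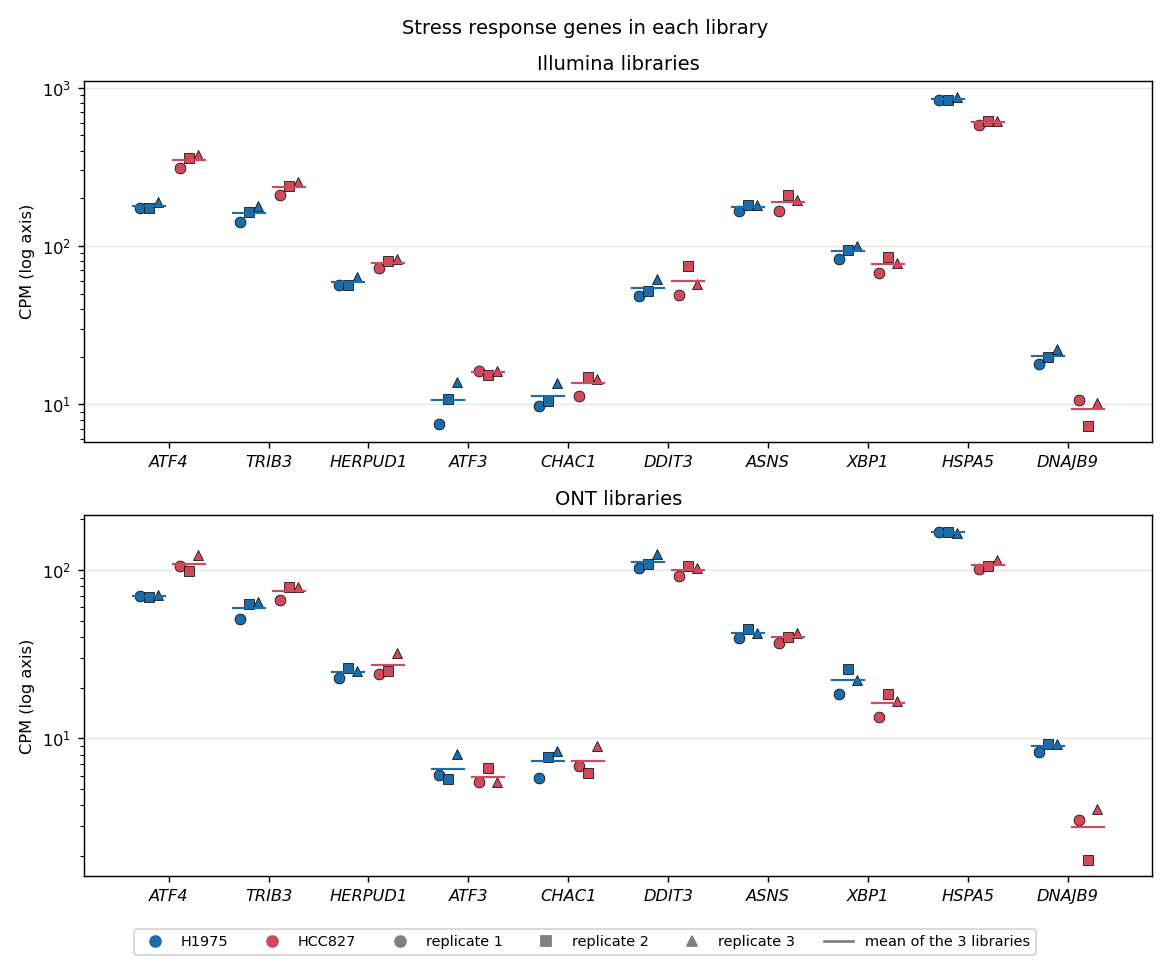
CPM (log axis) of the 10 genes in each Illumina library (upper panel) and each ONT library (lower panel), with H1975 in blue, HCC827 in red, marker shape for the replicate and a line at the mean of 3 libraries. ATF4 lies higher in HCC827 and HSPA5 and DNAJB9 lie lower in every library of both panels, whereas DDIT3, ASNS, CHAC1 and XBP1 overlap.

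ATF4 (ENSG00000128272; chromosome 22, 39519695 to 39522683), the transcription factor at the centre of the integrated stress response, had the largest rise. On Illumina it measured 174, 173 and 188 CPM in H1975 replicates 1 to 3 and 309, 359 and 373 CPM in HCC827. The lowest HCC827 library stood well above the highest H1975 library. The log2 fold was 0.96 ± 0.10 (adjusted p = 1.07e-06), a 1.95-fold difference. On ONT the values were 70.0, 68.8 and 71.1 CPM in H1975 and 105, 98.9 and 122 CPM in HCC827, again without overlap (0.63 ± 0.13, adjusted p = 0.00139). With library totals as the only scaling, which moves the median fold of all genes by -0.35 on Illumina and -0.55 on ONT, ATF4 kept its call on Illumina (0.60) and lost it on ONT (0.07, adjusted p = 0.526).

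ATF4 has processed pseudogenes whose sequence is near that of the gene. The 4 named ones took 34678 ONT counts in all, 71.6% of the 48439 counts of ATF4 itself, against 1175 Illumina counts, 2.5% of ATF4's. ATF4P3 on chromosome 17 took most of them, with 11782 counts in H1975 and 15240 in HCC827. Its ONT fold of 0.71, and that of 0.74 for ATF4P4 on chromosome 11, had the sign of ATF4's own. The sources used here do not say how reads that match several places were counted, so the ONT level of ATF4 is uncertain.

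TRIB3 (ENSG00000101255; chromosome 20, 362835 to 397559), a pseudokinase induced by ATF4 and DDIT3 that feeds back on ATF4, followed the same direction. Illumina gave 141, 164 and 178 CPM in H1975 and 210, 238 and 255 CPM in HCC827. The lines did not overlap, and the fold was 0.54 ± 0.11 (adjusted p = 0.000525). ONT gave 51.3, 62.3 and 64.4 CPM in H1975 and 65.9, 78.7 and 78.8 CPM in HCC827. These did not overlap either, but the fold of 0.33 ± 0.14 did not pass (adjusted p = 0.0651). TRIB3 fell short on Illumina too when only library totals were used for scaling (0.18, adjusted p = 0.128).

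ATF3 (ENSG00000162772; chromosome 1, 212565334 to 212620777), a transcription factor of the same bZIP family that ATF4 induces, was one of the least abundant of the 10. Illumina gave 7.51, 10.8 and 13.8 CPM in H1975 and 16.3, 15.4 and 16.2 CPM in HCC827. The H1975 libraries were spread widely and the HCC827 libraries lay close together above all of them. The fold was 0.59 ± 0.17 (adjusted p = 0.00598). It did not pass without HCC827 replicate 1 (adjusted p = 0.0531) or with library totals as the only scaling (0.23). ONT gave 6.06, 5.70 and 8.02 CPM in H1975 and 5.48, 6.69 and 5.50 CPM in HCC827. Here the lines overlapped and the fold was -0.16 ± 0.18 (adjusted p = 0.44).

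DDIT3 (ENSG00000175197; chromosome 12, 57516588 to 57521737) encodes CHOP, the transcription factor tied to cell death under lasting ER stress. Illumina gave 48.0, 52.1 and 61.9 CPM in H1975 and 49.0, 74.6 and 57.4 CPM in HCC827. The lines overlapped, with the highest value in HCC827 replicate 2, the shallow library, and the fold was 0.14 ± 0.14 (adjusted p = 0.365). ONT gave 102, 108 and 124 CPM in H1975 and 91.7, 105 and 103 CPM in HCC827, also overlapping (-0.16 ± 0.13, adjusted p = 0.316).

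The long-read values of DDIT3 cannot be separated from those of its neighbour MARS1, which encodes methionyl-tRNA synthetase on the opposite strand and shares 355 exon bases with DDIT3 in the annotation. MARS1 had 1.01 to 1.04 times the counts of DDIT3 in every ONT library and 0.923 to 1.0 times in PacBio, whereas on Illumina it had 3.42 to 5.89 times. On Illumina MARS1 itself was higher in HCC827 (0.70 ± 0.12, adjusted p = 7.44e-05), while on ONT its fold was -0.13 ± 0.13, close to that of DDIT3. A second gene model on the strand of DDIT3, ENSG00000285133, had 0.477 to 0.773 times its counts on ONT.

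**Figure D2:**
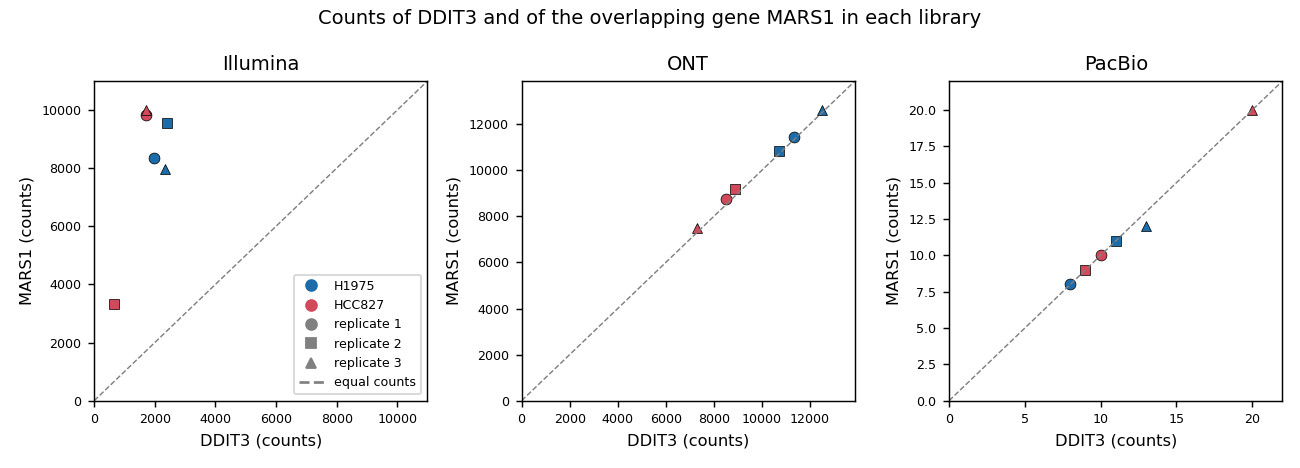
Counts of DDIT3 (horizontal axis) and of the overlapping gene MARS1 (vertical axis) in each library of the 3 platforms, with H1975 in blue, HCC827 in red and a dashed line at equal counts. The ONT and PacBio libraries lie on or close to the line of equal counts (ratios from 0.923 to 1.04) and the Illumina libraries lie far above it (3.42 to 5.89).

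ASNS and CHAC1 are targets of ATF4 in amino acid and glutathione metabolism. ASNS (ENSG00000070669; chromosome 7, 97851677 to 97872542), asparagine synthetase, measured 166, 180 and 182 CPM in H1975 and 166, 209 and 195 CPM in HCC827 on Illumina. The lines started from the same lowest value and overlapped (0.11 ± 0.10, adjusted p = 0.362). On ONT ASNS measured 39.2, 44.4 and 42.1 CPM in H1975 and 37.0, 39.9 and 42.2 CPM in HCC827 (-0.08 ± 0.13, adjusted p = 0.617). ASNS shares 2415 exon bases with the long non-coding RNA ENSG00000284707 on its own strand. That RNA had 1.08 to 1.16 times the counts of ASNS on Illumina, 1.29 to 1.55 times on ONT and 1.0 times in every PacBio library. The level of ASNS alone is therefore uncertain on each platform.

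CHAC1 (ENSG00000128965; chromosome 15, 40952962 to 40956512), a glutathione-degrading enzyme and a sensitive reporter of ATF4 activity, was low in both lines. Illumina gave 9.80, 10.5 and 13.6 CPM in H1975 and 11.3, 14.9 and 14.5 CPM in HCC827, with overlap (0.25 ± 0.14, adjusted p = 0.139). ONT gave 5.81, 7.75 and 8.37 CPM in H1975 and 6.84, 6.18 and 8.98 CPM in HCC827. There the lines lay on top of each other, and the adjusted p was 0.987. The calls of CHAC1, ASNS and DDIT3 on Illumina turned on single libraries: without HCC827 replicate 1 all 3 passed as higher in HCC827 (adjusted p = 0.0187, 0.0318 and 0.0485), and CHAC1 also passed without H1975 replicate 3 (adjusted p = 0.0298).

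HERPUD1 (ENSG00000051108; chromosome 16, 56932142 to 56944864), an ER membrane protein of ER-associated degradation, was called on Illumina and not on ONT. On Illumina it measured 56.4, 56.5 and 63.9 CPM in H1975 and 72.4, 80.8 and 82.1 CPM in HCC827, with no overlap. The fold was 0.41 ± 0.10 (adjusted p = 0.00149). On ONT it measured 22.9, 26.0 and 25.2 CPM in H1975 and 24.0, 25.1 and 32.2 CPM in HCC827, and only HCC827 replicate 3 lay above the H1975 libraries (0.14 ± 0.15, adjusted p = 0.453). With library totals as the only scaling the Illumina fold was 0.05 and the ONT fold -0.43 (adjusted p = 0.0209).

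HSPA5 (ENSG00000044574; chromosome 9, 125234853 to 125241382) encodes BiP, the main ER chaperone, which holds the sensors inactive until unfolded protein draws it away. Illumina gave 839, 835 and 866 CPM in H1975 and 580, 612 and 616 CPM in HCC827. Replicates agreed within a narrow range and the lines stood clearly apart, with a fold of -0.49 ± 0.10 (adjusted p = 0.000315). ONT gave 167, 168 and 166 CPM in H1975 and 101, 106 and 115 CPM in HCC827, a fold of -0.64 ± 0.12 (adjusted p = 0.000751). HSPA5 kept its direction and its call on both platforms under all 12 alternatives, with folds from -0.85 to -0.47 on Illumina and from -1.19 to -0.58 on ONT.

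DNAJB9 (ENSG00000128590; chromosome 7, 108569867 to 108574850), also called ERdj4, is a co-chaperone of BiP, a target of XBP1 and a repressor of IRE1. It had the largest fold of the 10. Illumina gave 17.9, 20.0 and 22.3 CPM in H1975 and 10.6, 7.34 and 10.2 CPM in HCC827. ONT gave 8.23, 9.30 and 9.27 CPM in H1975 and 3.25, 1.89 and 3.82 CPM in HCC827. No HCC827 library reached the H1975 range on either platform, and HCC827 replicate 2 was the lowest on both. The folds were -1.04 ± 0.13 (adjusted p = 5.67e-06) and -1.58 ± 0.23 (adjusted p = 0.000147), and the call held under all 12 alternatives on each platform. Of all genes tested, 36.8% on Illumina and 20.2% on ONT had a fold larger in size than that of DNAJB9. Within 500 kb of DNAJB9, 4 coding genes were tested on Illumina, 3 lower and 1 higher (38.0% and 36.1% of all genes). Their folds ran from -1.45 to 1.11 around a median of -1.09. Such medians were -0.60 around XBP1, -0.11 around HSPA5, -0.34 around ATF4, -0.33 around TRIB3, -0.24 around ATF3 and -0.07 around HERPUD1. The part of the surroundings in these folds was not tested.

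XBP1 (ENSG00000100219; chromosome 22, 28794555 to 28800597), the transcription factor activated by IRE1, was lower in HCC827 by a small margin. Illumina gave 83.2, 93.9 and 99.7 CPM in H1975 and 67.2, 85.6 and 78.0 CPM in HCC827. ONT gave 18.2, 25.6 and 22.3 CPM in H1975 and 13.4, 18.4 and 16.6 CPM in HCC827. On each platform HCC827 replicate 2 lay above H1975 replicate 1, so the lines overlapped. The folds were -0.27 ± 0.11 (adjusted p = 0.0385) and -0.45 ± 0.17 (adjusted p = 0.0412). Both calls rest on single libraries: the Illumina call was lost without H1975 replicate 2, H1975 replicate 3 or HCC827 replicate 1, and the ONT call without H1975 replicate 2 or 3, without HCC827 replicate 1 or 3, or with RLE scaling (adjusted p = 0.051).

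**Figure D3:**
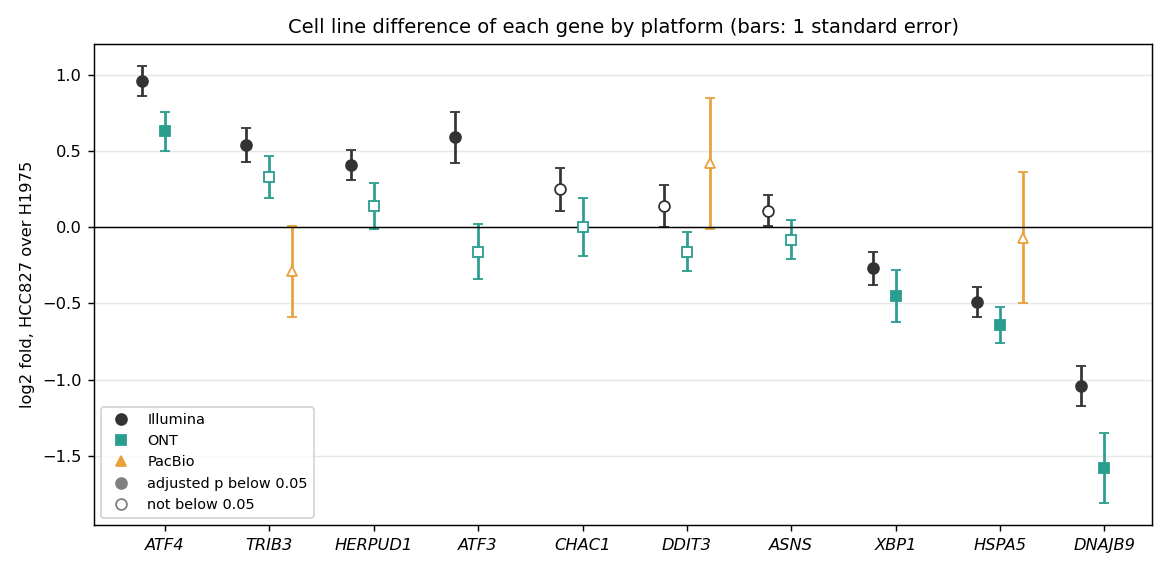
Log2 fold of HCC827 over H1975 for each gene on Illumina (circles), ONT (squares) and, for the 3 genes with enough counts, PacBio (triangles); bars are 1 SE and filled symbols have an adjusted p below 0.05. ATF4 stands highest (0.96 on Illumina, 0.63 on ONT) and DNAJB9 lowest (-1.04 and -1.58) on both platforms.

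The difference of the line difference between ONT and Illumina was tested by the interaction of line and platform over 12 libraries, where 7.16% of 29395 genes were called. None of the 10 genes passed in the edgeR fit over all genes, and DESeq2 called none. Without adjustment 1 gene, ATF3, would have passed the same threshold. The calls that TRIB3 and HERPUD1 had on Illumina and lacked on ONT are thus not shown to be a difference between platforms. ATF3 had the largest interaction, -0.58 ± 0.26 (adjusted p = 0.22), and DNAJB9 the next, -0.36 ± 0.28 (adjusted p = 0.526). The others lay between -0.17 (ATF4) and 0.01 (HSPA5), where the median of all genes was 0.11.

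PacBio was too shallow to decide the direction of any of the 10 genes. HSPA5, DDIT3 and TRIB3 passed the filter on low counts and none was called, against 22.9% of the 901 genes tested; none of the 3 had an unadjusted p below 0.05, and DESeq2 called none of the 8 it tested. Counting each of the close pairs named above as 1 sample gave no call among them either. HSPA5 had 30, 26 and 16 counts in H1975 and 22, 10 and 30 in HCC827, with overlap (-0.07 ± 0.43, adjusted p = 0.925). TRIB3 had 27, 30 and 31 counts in H1975 and 23, 17 and 25 in HCC827. Every HCC827 library was lower in counts, but in CPM the lines overlapped. H1975 lay between 1760 and 1940 CPM, and HCC827 replicate 3 was the highest at 1990 CPM. The fold was -0.29 ± 0.30 (adjusted p = 0.523), opposite in sign to that on Illumina. The ratio of counts per library total was 0.803, with a 95% Clopper-Pearson interval for counting error from 0.574 to 1.12, which holds no difference. The 1.46-fold rise on Illumina lies outside it, but the 2 values are scaled differently. With library totals the Illumina fold of TRIB3 was 0.18 on the log2 scale (edgeR adjusted p = 0.128), which is still just above the upper end of the interval. The interval also leaves out the spread between replicates. The difference between PacBio and Illumina was not tested.

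DDIT3 had 8, 11 and 13 PacBio counts in H1975 and 10, 9 and 20 in HCC827 (0.42 ± 0.43, adjusted p = 0.513). Of the genes under the filter, ATF4 had 10 counts in each line, a ratio of counts per library total of 1.09 with a 95% Clopper-Pearson interval from 0.406 to 2.91. DNAJB9 had 8 and 4 counts, a ratio of 0.544 (0.12 to 2.03). These intervals cover counting error only. They hold the folds seen on Illumina as well as no difference. XBP1 had 9 counts in H1975 and 11 in HCC827, ASNS 10 and 16, HERPUD1 12 and 13, ATF3 4 and 4 and CHAC1 3 and 3.

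Levels can be ordered between genes only per length. On Illumina, CPM per kilobase of exon put HSPA5 first in H1975 at 130 ± 2.57 (SD, n = 3) and ATF4 second at 68.2 ± 3.10. HCC827 had the reverse order, with ATF4 at 133 ± 13.0 and HSPA5 at 92.3 ± 3.00, and neither pair overlapped. The annotated exons of HSPA5 together cover its whole gene, 6530 bases with its introns, which lowers its level per kilobase, so its order against ATF4 rests on the length used. TRIB3 followed in both lines, at 48.8 ± 5.69 and 71.2 ± 6.80, ahead of DDIT3 at 41.3 ± 5.47 and 46.2 ± 9.99 and ASNS at 36.0 ± 1.74 and 38.8 ± 4.41. TRIB3, DDIT3 and ASNS could not be separated from their neighbours in this order in H1975, nor DDIT3 from ASNS in HCC827. XBP1 (30.5 and 25.4) and HERPUD1 (11.6 and 15.5) held the middle. The lowest 3 were DNAJB9, CHAC1 and ATF3 in H1975, at 7.90, 5.50 and 2.67, and CHAC1, ATF3 and DNAJB9 in HCC827, at 6.61, 3.99 and 3.70, the last 2 with overlapping libraries.

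In replicates 1 and 3 of each line most of the genes were low or high together, and in replicate 2 they were mixed. Each gene's log2 CPM (0.1 CPM added) was set against the mean of its line and platform. In H1975 replicate 1 all 10 genes were below their line mean on Illumina, by 0.15 in the mean (mean deviation -0.15), and 8 of 10 on ONT (-0.13). In H1975 replicate 3 all 10 were above on Illumina (0.16) and 9 of 10 on ONT (0.09). HCC827 replicate 1 had 8 and 9 genes below its line mean (-0.12 and -0.09), and HCC827 replicate 3 had 9 and 9 above (0.06 and 0.14). In H1975 replicate 2, 5 genes were above on Illumina (-0.01) and 7 on ONT (0.04), and in HCC827 replicate 2, 8 on Illumina (0.05) and 5 on ONT (-0.05). Among all 23433 genes tested on both platforms, 45.7% to 53.7% were above the mean in any library. The deviations of 3 replicates are not independent of each other, so these shares are a description.

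**Figure D4:**
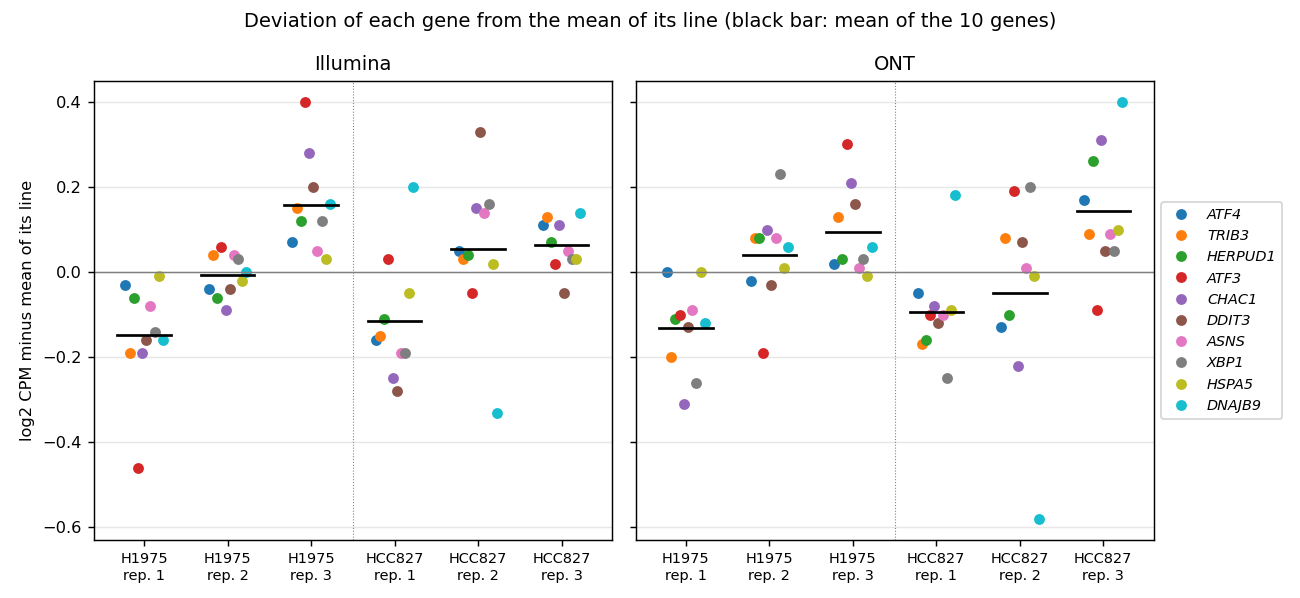
Log2 CPM of each of the 10 genes minus the mean of its line, by replicate on Illumina (left) and ONT (right); black bars are the mean of the 10 genes. Replicate 1 of each line lies below 0 in the mean and replicate 3 above it on both platforms (H1975: -0.15 and 0.16 on Illumina, -0.13 and 0.09 on ONT).

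The deviations of a gene over the 6 numbered replicates could be set side by side on Illumina and ONT, as a description. Pearson's r was 0.96 for TRIB3, 0.89 for DNAJB9, 0.87 for XBP1 and 0.85 for DDIT3, whose ONT values cannot be separated from those of MARS1. It was 0.73 for ASNS and 0.68 for HSPA5. ATF3 and HERPUD1 had 0.53, CHAC1 0.49 and ATF4 0.46. DNAJB9 departed from the others in HCC827, being the highest of the 10 in replicate 1 (0.20 on Illumina, 0.18 on ONT) and the lowest in replicate 2 (-0.33 and -0.58). Libraries of the 2 platforms were matched by line and replicate number, and the 3 deviations of a line sum to nearly 0.

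The genes whose deviations over the 12 Illumina and ONT libraries were most like the mean of the 10, among 9572 other genes with enough spread, were the histone gene H3C10 (r = 0.915), the secretory protein gene ZG16B (0.900), the RNA helicase gene DDX56 (0.896), the nucleolar methyltransferase gene NOP2 (0.888) and MIR210HG (0.886), a long non-coding host transcript of a microRNA. The points share the scaling of each library within a platform, and the 3 deviations of a line on a platform sum to nearly 0. These genes were picked as the highest of 9572 values of r. How high r would be from such a pick alone was not tested, so the ranking is a description.

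The wider pathway was read from 6 lists of other genes, whose counts stand beside 36.1% higher and 38.0% lower among all genes on Illumina and 31.1% and 31.6% on ONT. The first held 18 sensors, eIF2alpha kinases and their controls, of which 5 were higher and 9 lower in HCC827 on Illumina (median fold -0.31) and 3 higher and 7 lower on ONT (-0.19); the median of all genes was -0.04 and -0.02. Among the sensors themselves, named for their role with their values known, ATF6 was lower on both platforms (-0.49 ± 0.09 and -0.55 ± 0.14). ERN1 (-0.62 ± 0.14) and EIF2AK3 (-0.59 ± 0.10) were lower on Illumina, and ONT gave -0.26 ± 0.26 and -0.21 ± 0.22 for them at 0.743 to 1.52 mean CPM.

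By the rule for naming list genes, the largest falls called on both platforms were CREB3L1 and CREB3L2, which encode ER membrane transcription factors akin to ATF6. CREB3L1 measured 91.3 ± 2.55 CPM in H1975 and 1.23 ± 0.257 CPM in HCC827 (-6.25 ± 0.15, adjusted p = 5.19e-13), and CREB3L2 103 ± 3.26 and 45.1 ± 5.62 CPM (-1.19 ± 0.11, adjusted p = 1.43e-07). The largest rises were TRAF2, an adaptor that IRE1 recruits (1.11 ± 0.09, adjusted p = 1.03e-07), and PPP1R15A, the stress-induced subunit of the phosphatase that restores eIF2alpha (0.90 ± 0.12, adjusted p = 1.14e-05). PPP1R15A rose from 48.6 ± 8.16 to 91.3 ± 8.30 CPM on Illumina, with a smaller ONT fold of 0.43 ± 0.17 (adjusted p = 0.0476).

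Of 37 further ATF4 targets, 36 were tested, and they were the list with the most rises. On Illumina 21 were higher and 10 lower in HCC827 (median 0.47), and on ONT 18 and 7 (0.39); with library totals as the only scaling this split was 17 and 14 on Illumina and turned to 9 and 14 on ONT. CTH, the cystathionine gamma-lyase of cysteine synthesis, rose from 9.87 ± 1.01 to 52.1 ± 1.42 CPM (2.40 ± 0.10, adjusted p = 8.33e-11). EIF4EBP1, a repressor of cap-dependent translation, rose from 43.2 ± 1.34 to 132 ± 28.9 CPM (1.61 ± 0.14, adjusted p = 1.02e-07). ALDH1L2, a mitochondrial enzyme of folate metabolism, fell from 55.8 ± 2.13 to 4.61 ± 0.594 CPM (-3.57 ± 0.12, adjusted p = 6.55e-12). INHBE, an inhibin subunit, fell from 3.66 ± 0.704 to 0.551 ± 0.0792 CPM (-2.76 ± 0.24, adjusted p = 9.85e-08).

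Of the 25 ER chaperones and folding enzymes other than HSPA5 and DNAJB9, 17 were lower in HCC827, 3 higher and 5 not called on Illumina (median -0.46). On ONT 12 were lower, 1 higher and 12 not called (-0.38). Among the genes called, lower ones outnumbered higher ones with each scaling. FKBP14, a prolyl isomerase of the ER, fell from 28.0 ± 1.02 to 6.08 ± 0.743 CPM (-2.19 ± 0.12, adjusted p = 6.85e-10). DNAJC3, a co-chaperone of BiP that also inhibits eIF2alpha kinases, fell from 48.4 ± 0.527 to 21.3 ± 4.49 CPM (-1.15 ± 0.12, adjusted p = 1.11e-06). FKBP2, another prolyl isomerase, was the gene that rose on both platforms, from 26.1 ± 0.793 to 61.2 ± 8.86 CPM (1.22 ± 0.11, adjusted p = 1.68e-07).

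Genes of ER-associated degradation, the list HERPUD1 belongs to by function, were split: 5 of 18 were higher and 10 lower on Illumina (median -0.39), and 6 and 10 on ONT (-0.62). EDEM1 and SEL1L, which select and deliver misfolded glycoproteins, fell by 1.82 ± 0.12 and 1.62 ± 0.09 on the log2 scale (adjusted p = 9.34e-09 and 1.62e-09). Their partner SYVN1, the ubiquitin ligase HRD1, rose by 0.77 ± 0.10 (adjusted p = 1.14e-05). OS9, an ER lectin of the same complex, rose from 228 ± 12.7 to 3940 ± 513 CPM (4.11 ± 0.13, adjusted p = 4.54e-12). OS9 lies near DDIT3 on chromosome 12. Within 500 kb of DDIT3, 37 coding genes were tested, with 15 higher, 16 lower and folds from -3.62 to 4.51 around a median of -0.09, whereas DDIT3 itself had 0.14.

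Genes of translocation and secretion numbered 23, with 6 higher and 13 lower on Illumina and 3 and 10 on ONT. Their median was -0.35 on Illumina while their mean was -0.01. The largest rise was that of SEC61G, a subunit of the ER protein channel, from 54.2 ± 1.17 to 707 ± 58.6 CPM (3.71 ± 0.11, adjusted p = 2.6e-12). SSR4, a subunit of the translocon-associated complex, rose by 1.82 ± 0.11 (adjusted p = 3.48e-09). KDELR3, a receptor that returns ER proteins from the Golgi, fell by 1.33 ± 0.11 and SRP9 of the signal recognition particle by 0.97 ± 0.10 (adjusted p = 9.45e-08 and 7.68e-07). Of 7 death genes 3 were higher and 1 lower on each platform, a smaller share called than among all genes (74.1% and 62.7%). BBC3 (PUMA) and BAK1, both promoters of mitochondrial cell death, rose by 1.19 ± 0.15 and 0.63 ± 0.11 (adjusted p = 7.1e-06 and 0.000103).

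**Figure D5:**
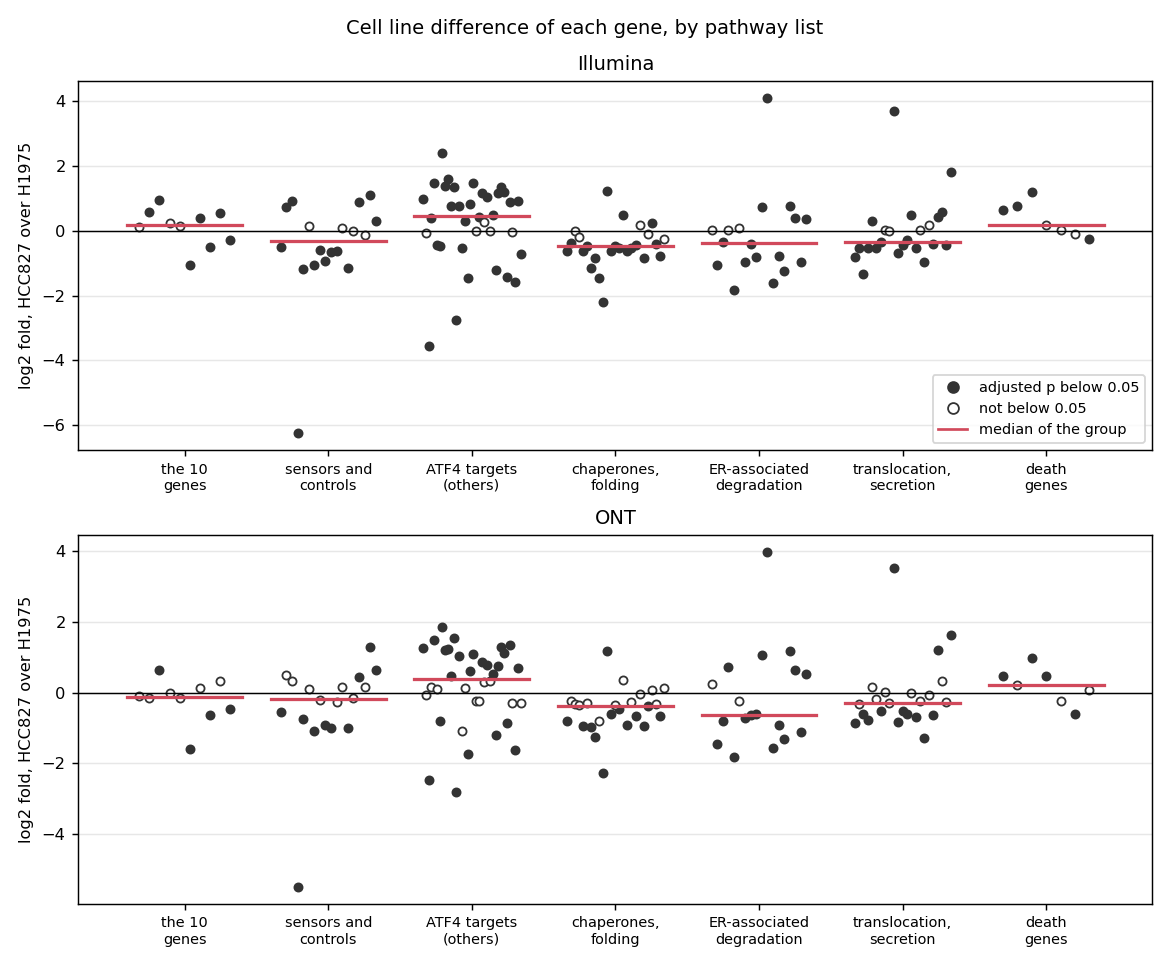
Log2 fold of HCC827 over H1975 for each tested gene of the 10 and of the 6 pathway lists, on Illumina (upper panel) and ONT (lower panel); filled points have an adjusted p below 0.05 and red bars are medians. Medians are above 0 for the other ATF4 targets (0.47 and 0.39) and below 0 for chaperones (-0.46 and -0.38).

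Exons of several of these list genes overlap another annotated gene, namely ERN1, EIF2AK3, ALDH1L2, INHBE, FKBP2, FKBP14, EDEM1, SYVN1, OS9, SEC61G, SSR4, KDELR3, BBC3 and BAK1, and their counts are uncertain to that extent. SYVN1, which shares exon bases with FAU and MRPL49, had 116 and 198 mean CPM on Illumina but 479 and 1090 on ONT.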

How the data were processed

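The authors deposited 1 file of raw counts per library, unnormalized and listed by Ensembl gene. The submitters' processing notes name minimap2 2.17, featureCounts and GRCh38. The sources used here do not give the strand setting, multi-mapping rule or annotation release. The file headers show that PacBio counts come from clustered sequences.

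Identifiers were matched without version. Symbols and coordinates came from GENCODE release 44. Spike-in RNAs (76 features) were left out, and X and Y copies of a gene were summed. Each platform was fitted alone with edgeR 4.0.16 in R 4.3.3 (TMM scaling, filterByExpr by group, robust quasi-likelihood test, two-sided, Benjamini-Hochberg), and the interaction of line and platform on the 12 Illumina and ONT libraries. The fits were tested on simulated data in which few genes changed, equally many up and down. Such data cannot test the choice of scaling for lines that differ in most genes. Alternatives were RLE, upper-quartile or no scaling factors, no filter, DESeq2 1.42.0, a replicate block and leaving out each replicate. P-values measure the spread between the 3 replicates of a line, which may be partly technical.

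All 10 genes are named; of each list, up to 2 genes per direction called on both platforms, by Illumina fold; the sensors, overlapping genes and SYVN1 levels were added after their values were seen. The genes and lists were chosen with earlier results of these data known.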

Additional observations from a re-analysis of the deposited data

Results flagged for a closer look

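The interaction test called 7.16% of 29395 genes. It called none of the 10 genes and 4 of the named list genes, which were picked for large line folds. The 4 are thus no count over the lists. Among list genes not named above, SSR1 (0.94 ± 0.15, edgeR adjusted p = 0.000384) and XPOT (0.58 ± 0.16, adjusted p = 0.0387) also passed. Each of the 4 named genes fell or rose on both platforms by a different amount. The value is the ONT fold minus the Illumina fold from the joint fit. Exons of ALDH1L2, KDELR3, SYVN1 and SSR1 overlap other annotated genes, so their differences are uncertain to that extent. ALDH1L2 fell less on ONT (difference 1.27 ± 0.21, adjusted p = 0.000662) and passed under all 12 alternatives. KDELR3 fell less on ONT (0.89, adjusted p = 0.00734); it did not pass without any 1 of the H1975 samples (adjusted p = 0.0631, 0.052 and 0.0588) or with library totals as the only scaling (0.137). CREB3L1 fell less on ONT (0.91, adjusted p = 0.0499), and the call was lost with RLE (0.0992), upper-quartile (0.123) or library-total scaling (0.185), with DESeq2 (0.0813) and in every fit that left out 1 replicate except HCC827 replicate 3 (adjusted p = 0.0205). SYVN1 rose more on ONT (0.57, adjusted p = 0.0375), and its call was lost with RLE (0.16), upper-quartile (0.205) or library-total scaling (0.243), with DESeq2 (0.0987) and without H1975 replicate 1, 2 or 3 or HCC827 replicate 1 (adjusted p = 0.124, 0.166, 0.261 and 0.139).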

How the results depend on the processing

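On Illumina the number of the 10 genes called stayed between 5 and 8 under every alternative, with 7 in the replicate block; on ONT the replicate block gave 4, and on PacBio 0. Over all genes, same-numbered samples of the lines did not deviate together (r of -0.081, -0.012 and 0.118 on Illumina), so the numbers were not taken to pair the lines, although the mean of the 10 genes was low in replicate 1 and high in replicate 3 of both. In the interaction, a replicate block of same-numbered Illumina and ONT libraries of a line called 1 of the 10 (ATF3, -0.62 ± 0.19, adjusted p = 0.044) and 3109 in place of 2105 genes in all; these pairs had r of 0.113, -0.010 and 0.086 in H1975 and 0.371, 0.167 and 0.305 in HCC827, with 5 of 6 Illumina libraries closest to their own number, so the numbers are a hint of shared RNA, not a stated pairing. Library totals called 1 (ATF4, -0.53, adjusted p = 0.0172). Scaling by library totals called 8 of the 10 genes on ONT, all 8 lower, with 23 of 25 chaperones and 21 of 23 translocation genes called there, and the share of higher genes among all called fell from 48.8% to 33.7% on Illumina and from 49.5% to 23.9% on ONT. It turned DDIT3 (-0.22), ASNS (-0.25) and CHAC1 (-0.11) on Illumina, TRIB3 (-0.22), CHAC1 (-0.56), HERPUD1 (-0.43), PPP1R15A (-0.12) and BAK1 (-0.10) on ONT, and HSPA5 (-0.34) in the interaction. The cause was not tested. Folds near 0 changed sign elsewhere: CHAC1 on ONT with upper-quartile scaling (-0.07) or no filter (-0.02), and in the interaction HSPA5 with RLE (-0.10), upper-quartile scaling (-0.16) or DESeq2 (-0.09), and XBP1 (0.01) and ASNS (0.01) with no filter. RLE and upper-quartile scaling move the median interaction of all genes by -0.11 and -0.17.

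Leaving out single replicates gave -0.005 to 0.27 for DDIT3 on Illumina, -0.16 to 0.14 for CHAC1 on ONT, -0.53 to 0.24 for HSPA5 and -0.12 to 0.78 for DDIT3 on PacBio, and in the interaction -0.03 to 0.03 for HSPA5, -0.11 to 0.08 for XBP1 and -0.18 to 0.02 for CHAC1. The ONT death genes called ranged from 2 to 4. TRIB3 passed on ONT without HCC827 replicate 1 or 2 (adjusted p = 0.0405 and 0.0415). The PacBio count over all genes, 206, was 50 with the replicate block, 971 with no filter, 142 with DESeq2, 63 with the close libraries summed and 24 to 336 without single replicates; none of these fits called any of the 10. Depth limits PacBio, where 7 of the 10 genes fell under the filter.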

Other observations

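Amino acid supply genes among the ATF4 targets outside the 10 were grouped by role after their values were seen, so the grouping carries no test. Of the 8 amino acid transporter genes of the list, 5 were higher in HCC827 on both platforms: SLC7A5, SLC3A2, SLC7A1, SLC1A5 and SLC6A9, with Illumina folds from 0.50 ± 0.10 for SLC1A5 to 1.36 ± 0.10 for SLC6A9. Among all genes 36.1% were higher on Illumina and 31.1% on ONT, and with library totals as the only scaling the whole list of ATF4 targets had 9 higher and 14 lower on ONT. SLC38A2 (-1.21 ± 0.12) and the cystine transporter SLC7A11 (-1.42 ± 0.13) were lower on both, and SLC1A4 had 0.01 ± 0.12. Of the serine synthesis enzymes, PHGDH rose from 80.7 ± 1.48 to 224 ± 45.9 CPM on Illumina and PSAT1 measured 138 ± 9.45 and 137 ± 14.4 CPM. PSPH passed as higher on Illumina (0.44 ± 0.10), while ONT gave -0.24 ± 0.13; the difference between the platforms, -0.52 ± 0.16 in the joint fit, did not pass (edgeR adjusted p = 0.0558), but did with the replicate block of same-numbered libraries (0.0127). NUPR1, a stress-induced chromatin protein, fell on both platforms (-1.46 ± 0.11 and -1.74 ± 0.17). NUPR1 shares 909 exon bases with ENSG00000289754 on its own strand, and SLC7A11, SLC7A5, SLC1A5 and SLC6A9 share exon bases with genes on the opposite strand, so their counts are uncertain to that extent.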
